A study of Bos taurus with 4 samples.

Results

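Transcripts of 6 pluripotency factor genes, POU5F1, NANOG, SOX2, KLF4, SALL4 and LIN28A, were followed through 4 RNA sequencing libraries of bovine (Bos taurus) embryos. The genes were chosen by name, and each had 1 row among the 14517 RefSeq transcript accessions of the deposited expression table. All embryos had received small interfering RNAs (siRNAs) as zygotes and were collected 3 days after insemination at the 8- to 16-cell stage. The control group (NC, n = 2 libraries) received negative control siRNAs, and the knockdown group (KDM5_KD, n = 2 libraries) received siRNAs against KDM5A, KDM5B and KDM5C, which encode demethylases of lysine 4 of histone H3. The title of KDM5_KD replicate 2 names a Kdm5 knockdown, but its treatment entry names siRNAs against KDM6A, KDM6B and KDM6C. It was grouped by its title. How many embryos made up a library, and whether replicates came from separate collections, are not given in the sources used here, so p-values measure only the spread between these libraries, which may be technical.

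POU5F1 (also called OCT4), SOX2 and NANOG are DNA-binding factors that bind many of the same enhancers and maintain the undifferentiated state of the inner cell mass and of embryonic stem cells. KLF4 is a zinc finger factor that was among the original reprogramming factors together with POU5F1 and SOX2. SALL4 is a zinc finger factor that regulates POU5F1 and recruits the NuRD deacetylase complex, and LIN28A is an RNA-binding protein that blocks the maturation of let-7 microRNAs. In the cleaving embryo such transcripts can be stored in the oocyte, made by the newly activated embryonic genome, or both. RNA of whole embryos does not separate these sources, and fewer cells of a type cannot be told apart from less RNA per cell.

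Levels are given in FPKM, fragments per kilobase of transcript, scaled to the number of mapped fragments, which divides by transcript length and so allows genes to be compared. The sums of FPKM per library lay between 283347 and 322267. Absolute read numbers are unknown. The steps of low values put NC replicate 1 at 0.683 times the depth of NC replicate 2, and NC replicate 2 at 1.25 and 1.28 times that of KDM5_KD replicates 1 and 2. The siRNA target KDM5A was at 28.4 and 27.1 FPKM in NC replicates 1 and 2 and at 10.5 and 10.1 FPKM in KDM5_KD replicates 1 and 2. KDM5C was at 28.1 and 40.6 FPKM against 15.1 and 17.8 FPKM, and KDM6A at 7.63 and 11.3 FPKM against 7.90 and 9.29 FPKM. Both KDM5 transcripts were thus lower in each knockdown library than in each control library, including the library with the conflicting label. Of all transcripts tested, 15.6% were. The KDM6A groups overlapped. In the limma test described below, the adjusted p was 0.0333 for KDM5A, 0.123 for KDM5C and 0.848 for KDM6A. KDM5B was not analysed here.

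All 6 factors were detected in every library, over a wide range of levels. KLF4 was the most abundant, ranking between 36 and 64 among the 14517 transcripts in the 4 libraries, and LIN28A the least, ranking between 2994 and 4612. In NC replicate 1, NC replicate 2 and KDM5_KD replicate 1 the order of levels was KLF4, SALL4, SOX2, POU5F1, NANOG and LIN28A. In KDM5_KD replicate 2, POU5F1 stood above SOX2. The values of SOX2 overlapped those of its neighbour POU5F1 across libraries, and its lowest value lay below the highest of NANOG, whereas KLF4, SALL4, NANOG and LIN28A kept their places in all 4 libraries. The 6 transcripts summed to 960 and 831 FPKM in NC replicates 1 and 2 and to 824 and 702 FPKM in KDM5_KD replicates 1 and 2, and KLF4 alone made up between 60.2% and 63.2% of these sums.

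**Figure D1:**
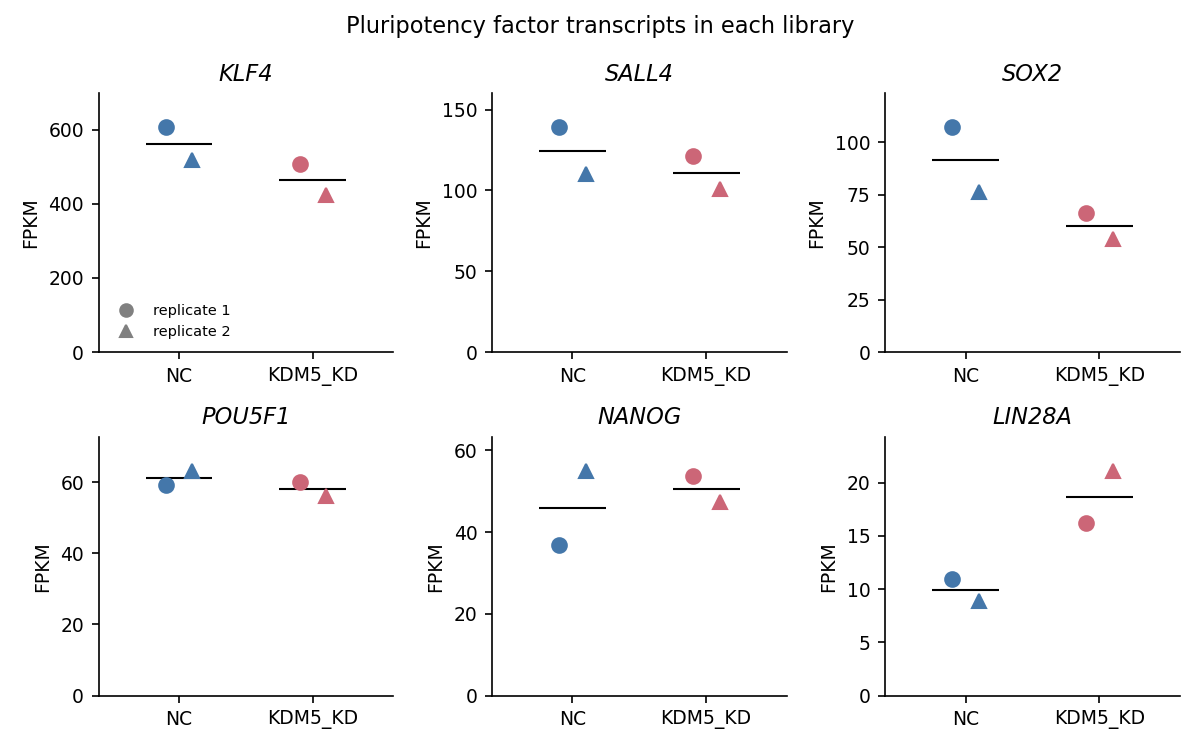
FPKM of the 6 pluripotency factor transcripts (vertical axes, from 0, a separate scale for each gene) in NC (blue) and KDM5_KD (red) libraries, with circles for replicate 1, triangles for replicate 2 and a line at the group mean. LIN28A lies higher in both knockdown libraries than in both controls, SOX2 and KLF4 lie lower, and the groups of SALL4, POU5F1 and NANOG overlap.

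Differences between the groups were tested with limma on log2(FPKM + 1) across the 8970 transcripts with a mean of at least 1 FPKM, and fold changes are on that scale, knockdown minus control. None of the 6 factors passed an adjusted p of 0.05 in limma, which 0.279% of all transcripts passed, 0.19% higher and 0.0892% lower. At an unadjusted limma p under 0.05, 1 factor was higher (LIN28A) and 1 lower (SOX2), where 14.3% of all transcripts were higher and 3.12% lower. The groups did not overlap for 3 of the 6, against 50.7% of all transcripts, a share close to the background. The median log2 fold change of the 6 was -0.12, beside 0.09 for all transcripts tested, of which 62.6% had positive values.

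LIN28A (NM_001193057) had the largest difference of the 6. It was at 10.9 and 8.87 FPKM in NC replicates 1 and 2 and at 16.2 and 21.1 FPKM in KDM5_KD replicates 1 and 2. The groups did not overlap, the gap between them being 5.25 FPKM, and 35.1% of all transcripts had knockdown values entirely above the control values. The NC mean was 9.90 ± 1.45 FPKM and the KDM5_KD mean 18.7 ± 3.50 FPKM (SD, n = 2 each), or 188% of the control mean. The log2 fold change was 0.85 (SE 0.198, 95% interval 0.36 to 1.33), with a limma adjusted p = 0.139. Single knockdown libraries were between 1.48 and 2.38 times single control libraries. Of all transcripts tested, 6.82% had a larger absolute change. Without KDM5_KD replicate 2, the library with the conflicting label, the value was 0.66 (limma adjusted p = 0.562).

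Markers of the oocyte and of cumulus cells, the somatic cells that surround the oocyte, were measured beside LIN28A. The 11 oocyte marker rows summed to 285 and 211 FPKM in NC replicates 1 and 2 and to 316 and 409 FPKM in KDM5_KD replicates 1 and 2. All 11 had positive fold changes, with a median of 0.41, where 62.6% of all transcripts were positive. None passed limma's adjusted threshold, 6 of the 11 lay entirely above the controls (35.1% of all transcripts), and 3 were higher at an unadjusted limma p under 0.05 (14.3% of all transcripts). BMP15, an oocyte growth factor gene, was at 118 and 83.8 FPKM against 149 and 172 FPKM (log2 fold change 0.68, limma adjusted p = 0.166). Its log2 fold change was 0.92 without NC replicate 1. The 12 cumulus marker rows summed to 28.1 and 16.7 FPKM against 45.7 and 47.2 FPKM. Of the 9 cumulus rows tested, 7 lay entirely above the controls (35.1% of all transcripts). With all tested transcripts split into 4 equal groups by mean level, that share was 48% in the lowest group and 40.6% in the next. AMH and TNFAIP6 had negative values of -0.42 and -0.05 with overlapping groups. None of the 9 cumulus rows passed the limma adjusted threshold, and 6 were higher at an unadjusted limma p under 0.05 (14.3% of all transcripts). The log2 fold changes of INHA and CYP11A1 were 1.24 and 1.22, and 1.52 and 1.71 without NC replicate 1. The receptor gene FSHR was listed at 0 in both NC libraries and had a mean of 0.0329 FPKM in KDM5_KD, and the aromatase gene CYP19A1 had means of 0.0356 and 0.0307 FPKM. The part of oocyte and cumulus transcripts in the LIN28A difference was not tested.

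SOX2 (NM_001105463), the partner that binds DNA together with POU5F1, had the largest difference in the other direction. It was at 107 and 76.3 FPKM in NC replicates 1 and 2 and at 66.2 and 53.8 FPKM in KDM5_KD replicates 1 and 2. The groups did not overlap and were separated by 10.1 FPKM, while 15.6% of all transcripts had knockdown values entirely below the controls. The NC mean was 91.7 ± 21.8 FPKM and the KDM5_KD mean 60.0 ± 8.75 FPKM (SD, n = 2 each), or 65.4% of the control mean. The log2 fold change was -0.59 (SE 0.197, 95% interval -1.07 to -0.11) with a limma adjusted p = 0.215, and 14.1% of transcripts had a larger absolute change. Its size varied with the control library, and without NC replicate 1 the log2 fold change was -0.35 (limma adjusted p = 0.353). Without KDM5_KD replicate 2 it was -0.44 (limma adjusted p = 0.717). In the reference annotation SOX2 overlaps a long noncoding RNA gene, LOC100849009. Strand-specific counting is not stated, so reads of overlapping transcripts may not be told apart.

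KLF4 (NM_001105385) was at 606 and 517 FPKM in NC replicates 1 and 2 and at 507 and 422 FPKM in KDM5_KD replicates 1 and 2. Its groups were separated by only 10.1 FPKM, less than the difference between replicates of either group. The NC mean was 562 ± 63.1 FPKM and the KDM5_KD mean 465 ± 59.8 FPKM (SD, n = 2 each), 82.7% of control, with a log2 fold change of -0.27 (SE 0.146, 95% interval -0.63 to 0.08) and a limma adjusted p = 0.393. The value was -0.42 after median-ratio scaling, -0.16 without NC replicate 1 and -0.14 without KDM5_KD replicate 2.

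SALL4 (NM_001192836) was at 139 and 110 FPKM in NC replicates 1 and 2 and at 121 and 101 FPKM in KDM5_KD replicates 1 and 2, so the groups overlapped. Its log2 fold change was -0.16 (SE 0.162, 95% interval -0.56 to 0.23, limma adjusted p = 0.656). In each group replicate 1 was the higher library, by 1.26 times in NC and 1.20 times in KDM5_KD, which is more than the ratio of the group means (89.0% of control). Without NC replicate 1 the log2 fold change was 0.0038, without KDM5_KD replicate 2 it was -0.03, without NC replicate 2 or KDM5_KD replicate 1 it was -0.33 and -0.29, and after median-ratio scaling and rescaling to a common sum it was -0.31 and -0.28.

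POU5F1 (NM_174580) varied least. It was at 59.2 and 63.2 FPKM in NC replicates 1 and 2 and at 60.0 and 56.2 FPKM in KDM5_KD replicates 1 and 2. The groups overlapped, and the replicates of each differed by 1.07 times. The NC mean was 61.2 ± 2.82 FPKM and the KDM5_KD mean 58.1 ± 2.69 FPKM (SD, n = 2 each), 94.95% of the control mean. Its log2 fold change was -0.07 (SE 0.119, limma adjusted p = 0.799). The 95% interval ran from -0.36 to 0.22, which corresponds to between 0.777 and 1.16 times the control level. A change of 2-fold in either direction lies outside this interval. The estimate was -0.21 after median-ratio scaling, -0.19 after rescaling to a common sum, -0.12 without NC replicate 1 or without KDM5_KD replicate 1, and -0.03 without NC replicate 2 or without KDM5_KD replicate 2.

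NANOG (NM_001025344) was at 37.0 and 55.0 FPKM in NC replicates 1 and 2 and at 53.8 and 47.4 FPKM in KDM5_KD replicates 1 and 2. Both knockdown values lay between the control values, which differed by 1.49 times, the widest spread between control replicates among the 6 factors. The log2 fold change was 0.16 (SE 0.205, 95% interval -0.34 to 0.66, limma adjusted p = 0.740). Its direction depended on the control library, being -0.12 without NC replicate 1 and 0.44 without NC replicate 2. It was 0.25 and 0.07 without KDM5_KD replicates 2 and 1, 0.02 after median-ratio scaling and 0.05 after rescaling to a common sum.

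**Figure D2:**
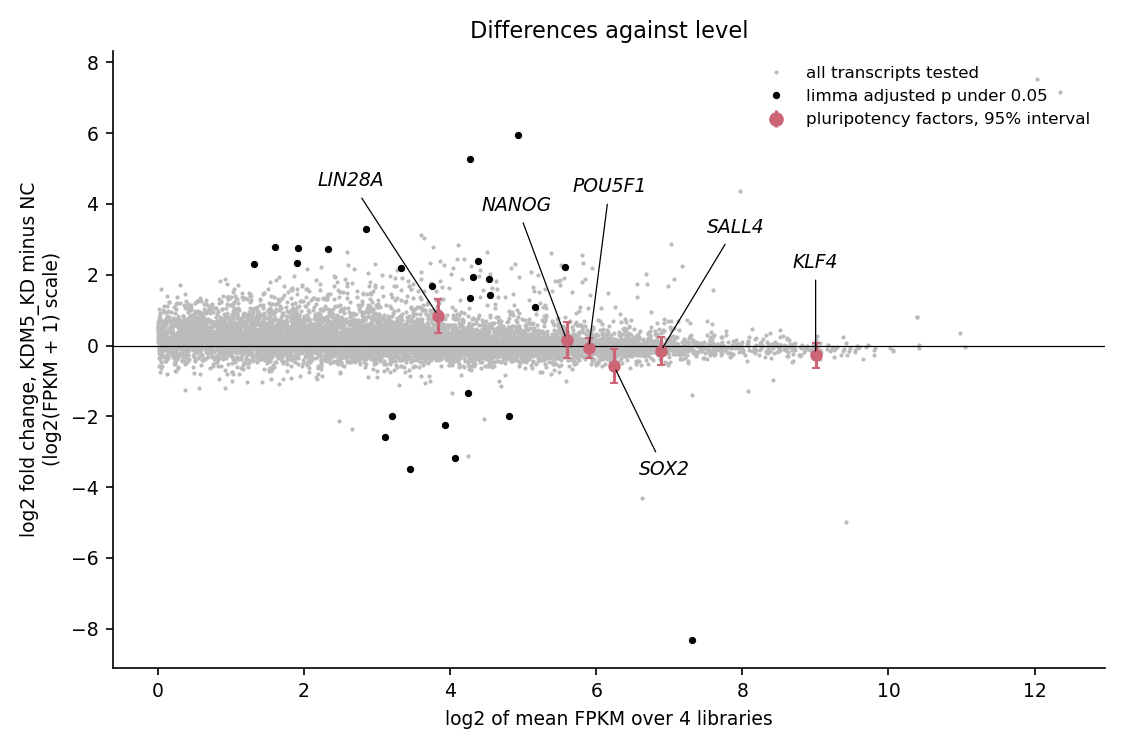
Log2 fold change, KDM5_KD minus NC on the log2(FPKM + 1) scale (vertical axis), against log2 of the mean FPKM over 4 libraries (horizontal axis) for the 8970 transcripts tested (grey; black where the limma adjusted p is under 0.05), with the 6 pluripotency factors in red and bars for their 95% intervals. LIN28A at 0.85 and SOX2 at -0.59 have intervals that leave out 0, and none of the 6 is among the black points.

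**Figure D3:**
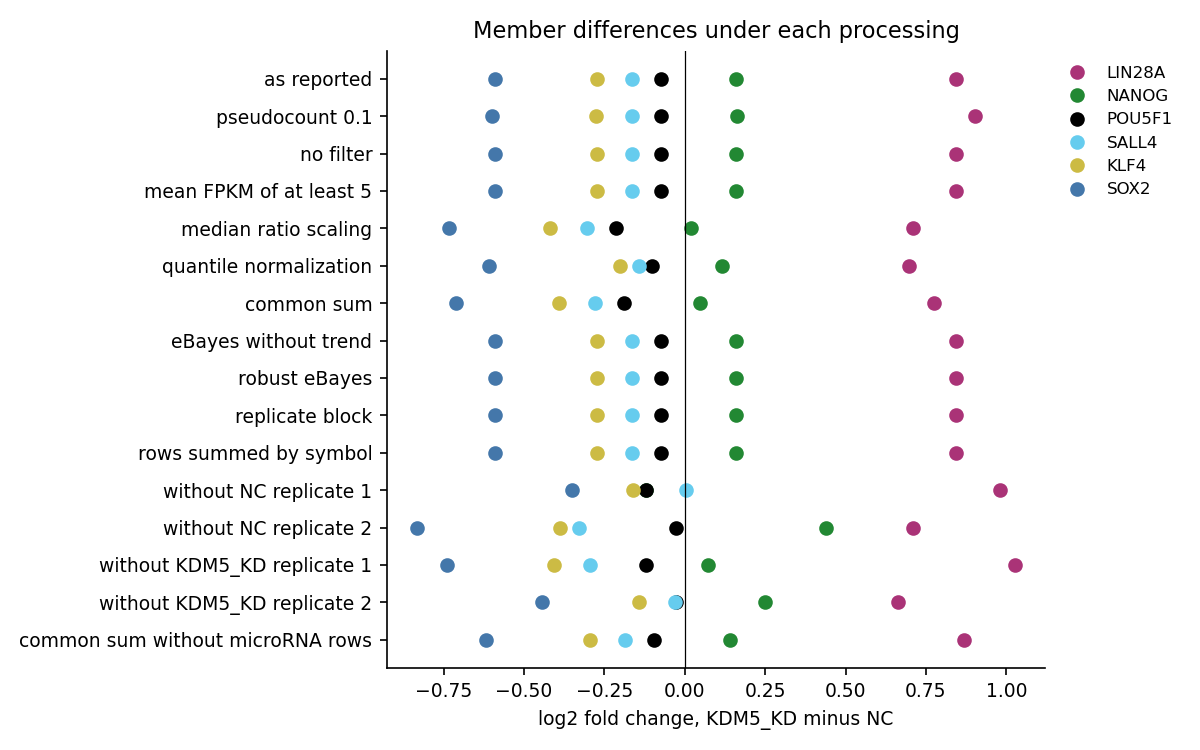
Log2 fold change, KDM5_KD minus NC (horizontal axis), of the 6 factors (colours) as reported and under each alternative processing or with 1 library left out (rows). LIN28A stays between 0.66 and 1.03 and SOX2 between -0.83 and -0.35, while NANOG and SALL4 cross 0 without NC replicate 1.

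With the tested transcripts ordered by mean level and split into 4 groups of equal size, 5 of the 6 factors belonged to the highest, above 28.7 FPKM, in which the median log2 fold change was -0.02, and 24.5% had knockdown values entirely below the controls and 21.0% entirely above. LIN28A belonged to the group beneath it, with a median of 0.06, where 17.6% lay entirely below and 30.8% entirely above. The next group down had a median of 0.16, with 11.4% entirely below and 40.6% entirely above. The lowest group had a median of 0.25, with 9.01% entirely below and 48% entirely above.

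Ratios within a library do not depend on how libraries are scaled to one another. SOX2 was at 1.81 and 1.21 times POU5F1 in NC replicates 1 and 2 and at 1.10 and 0.957 times POU5F1 in KDM5_KD replicates 1 and 2. The groups did not overlap, and across all other transcripts tested the groups of the ratio to POU5F1 did not overlap for 50.8%, being entirely lower in the knockdown for 9.83%. LIN28A was at 0.185 and 0.140 times POU5F1 in NC and at 0.270 and 0.376 times POU5F1 in KDM5_KD, and the ratio to POU5F1 was entirely higher in the knockdown for 41.0% of transcripts. The ratios of KLF4, SALL4 and NANOG to POU5F1 overlapped between groups.

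The ratio of LIN28A to SOX2 brought together the members that differed most in opposite directions. It was 0.102 and 0.116 in NC replicates 1 and 2 and 0.245 and 0.393 in KDM5_KD replicates 1 and 2. LIN28A to KLF4 was nearly equal in the controls, at 0.0180 and 0.0172, and was 0.0319 and 0.05 in the knockdown. KLF4 was at 4.36 and 4.69 times SALL4 in NC replicates 1 and 2 and at 4.19 times SALL4 in both knockdown libraries, a small difference without overlap between the groups. These ratios were chosen after their values were seen and are given as descriptions. Of the 15 pairs of factors, 10 had ratios that did not overlap between the groups.

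**Figure D4:**
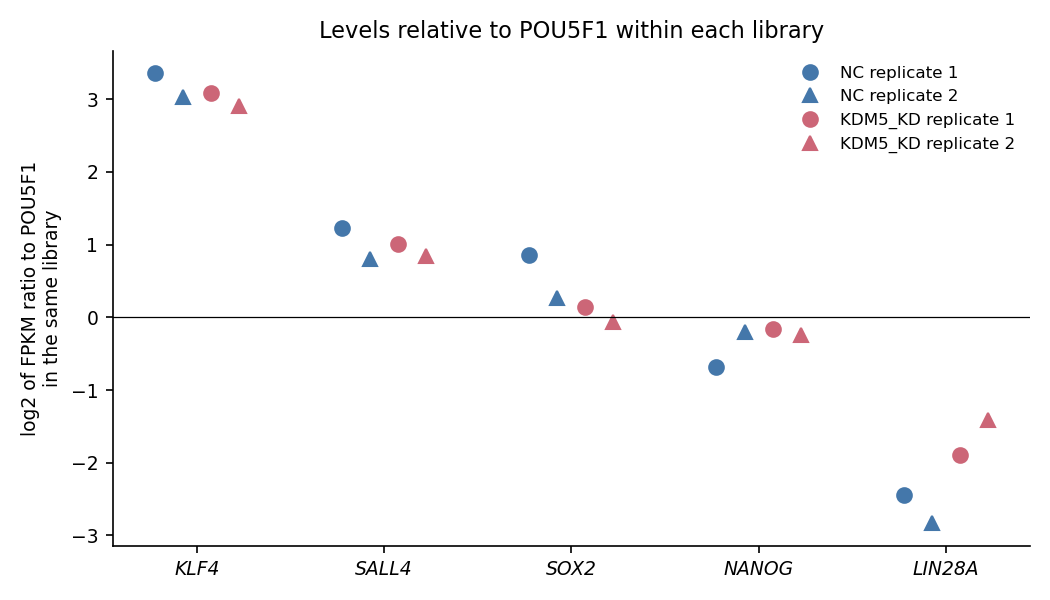
Log2 of the ratio of FPKM to that of POU5F1 in the same library (vertical axis) for 5 factors, with NC in blue, KDM5_KD in red, circles for replicate 1 and triangles for replicate 2. SOX2 lies at 1.81 and 1.21 times POU5F1 in the controls and at 1.10 and 0.957 times in the knockdown libraries, LIN28A lies higher in both knockdown libraries, and KLF4, SALL4 and NANOG overlap.

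Transcripts with the most similar profile were sought among those with a symbol and a mean of at least 5 FPKM, by the root mean square distance of centred log2(FPKM + 1) over the 4 libraries. NANOG was closest to LRRC28 (distance 0.013) and DPPA4 (0.0354), and DPPA4, itself a gene expressed in pluripotent cells, was at 28.4 and 41.3 FPKM in NC replicates 1 and 2 and at 39.5 and 34.1 FPKM in KDM5_KD replicates 1 and 2. SOX2 was closest to INTS1 (0.0274) and GPRC5C (0.0548), and LIN28A to LHFPL2 (0.037) and BCL2L2 (0.046). KLF4 was closest to RPL13 (0.0076) and AKIRIN1 (0.0129), SALL4 to RPL28 (0.0071) and CHCHD7 (0.0108), and POU5F1 to ZC3H7A (0.0063) and RPF1 (0.0068). Such likeness over 4 libraries is common for flat profiles. Of 6010 candidates, 1291 lay within 0.1 of POU5F1, 398 of SALL4 and 364 of KLF4, against 55 of NANOG, 43 of LIN28A and 29 of SOX2.

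Other genes of the pluripotency network were taken from a list of 35, of which 20 had a row, and 15 rows of 14 genes were tested. None passed the limma adjusted threshold in either direction, 3 were higher and none lower at an unadjusted limma p under 0.05, and the median log2 fold change was 0.11 beside 0.09 for all transcripts. At that unadjusted threshold 14.3% of all transcripts were higher and 3.12% lower. Of the 15 rows, 5 lay entirely above the controls and 1 entirely below, where 35.1% and 15.6% of all transcripts did so. OTX2, a homeobox gene of primed pluripotency, was at 4.15 and 5.38 FPKM in NC replicates 1 and 2 and at 9.83 and 10.2 FPKM in KDM5_KD replicates 1 and 2 (log2 fold change 0.94, SE 0.195, limma adjusted p = 0.123). STAT3, the transducer of LIF signalling, was at 9.29 and 6.23 FPKM against 11.5 and 16.5 FPKM (0.78, SE 0.256, limma adjusted p = 0.212). The knockdown values of both lay above both controls.

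DPPA3, a maternal factor that protects the maternal genome of the zygote from demethylation, had a pair of rows that differed. NM_001111109 was at 179 and 128 FPKM in NC replicates 1 and 2 and at 249 and 216 FPKM in KDM5_KD replicates 1 and 2. Its log2 difference was 0.62 (SE 0.183, limma adjusted p = 0.188), or 0.86 without NC replicate 1. NM_001111108 was at 34.5 and 36.5 FPKM against 32.8 and 40.0 FPKM, so its groups overlapped. Reads may be divided between these rows. SALL1, a paralog of SALL4, was far lower than SALL4, at 5.77 and 7.53 FPKM against 8.81 and 8.21 FPKM (log2 fold change 0.32, SE 0.197, limma adjusted p = 0.452). FGF4, a growth factor gene activated by POU5F1 and SOX2 in the inner cell mass, was listed at 0 in all 4 libraries.

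In the pathway that LIN28A acts on, 11 of 16 listed genes had a row and 9 were tested. None passed the limma adjusted threshold, and 1 was higher at an unadjusted limma p under 0.05 (14.3% of all transcripts). The median log2 fold change was -0.08. The insulin-like growth factor 2 mRNA-binding protein genes, whose transcripts are let-7 targets, had differences of both signs. IGF2BP3 was at 22.3 and 15.7 FPKM in NC replicates 1 and 2 and at 26.4 and 32.9 FPKM in KDM5_KD replicates 1 and 2 (log2 fold change 0.63, SE 0.209, limma adjusted p = 0.218). IGF2BP2 was at 5.30 and 2.70 FPKM against 5.26 and 8.54 FPKM, overlapping, and IGF2BP1 at 57.3 and 59.0 FPKM against 48.8 and 46.5 FPKM (-0.28, SE 0.117, limma adjusted p = 0.290). HMGA1, a chromatin protein gene, was at 157 and 134 FPKM against 124 and 123 FPKM, with a log2 fold change of -0.23 and a limma adjusted p = 0.393. TUT7, a uridylyltransferase that LIN28A recruits to let-7 precursors, was abundant in every library, between 170 and 211 FPKM, and TUT4, which acts with it, stayed below 1 FPKM in all 4.

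The NuRD complex, with which SALL4 associates, had 9 of 13 listed genes with a row and tested. None passed the limma adjusted threshold, none had an unadjusted limma p under 0.05, and the median log2 fold change was -0.06. The helicase gene CHD4 was at 96.4 and 111 FPKM in NC replicates 1 and 2 and at 86.8 and 86.1 FPKM in KDM5_KD replicates 1 and 2 (-0.25, SE 0.122, limma adjusted p = 0.349), and MTA2 at 66.9 and 63.8 FPKM against 58.6 and 52.0 FPKM (-0.24, SE 0.124, limma adjusted p = 0.384). The groups of MBD3 and GATAD2A overlapped, with log2 fold changes of -0.09 and 0.09.

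Among the relatives of POU5F1, SOX2 and KLF4, 1 transcript passed. Of the POU family, 7 of 14 listed genes had a row and 5 were tested. The POU gene POU3F2 fell from 46.6 and 44.0 FPKM in NC replicates 1 and 2 to 9.65 and 11.9 FPKM in KDM5_KD replicates 1 and 2, a log2 difference of -1.98 (SE 0.155, limma adjusted p = 0.0151). It no longer passed without a filter on low values (-1.98, limma adjusted p = 0.167), without KDM5_KD replicate 1 (-1.85, limma adjusted p = 0.0653) or without KDM5_KD replicate 2 (-2.12, limma adjusted p = 0.0515). The other 4 POU rows tested did not pass. POU2F3, POU4F3 and POU3F1 had log2 fold changes of -0.46, 0.45 and -0.25, all with overlapping groups.

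Of the SOX family, 10 of 19 listed genes had a row and 4 were tested, none of which passed the limma adjusted threshold or had an unadjusted limma p under 0.05. SOX15, at 62.3 and 71.1 FPKM in NC replicates 1 and 2 and at 72.0 and 73.3 FPKM in KDM5_KD replicates 1 and 2, was at a level near that of SOX2 and showed a log2 difference of 0.12 (SE 0.123, limma adjusted p = 0.654). SOX4 overlapped between groups (0.11), and SOX30 and SOX14 stayed below 4 FPKM.

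Of the KLF family, 11 of 17 had a row and 9 were tested, with none past the limma adjusted threshold. At an unadjusted limma p under 0.05, 1 was higher and 1 lower, where 14.3% of all transcripts were higher and 3.12% lower. KLF6 was at 2.75 and 1.66 FPKM in NC replicates 1 and 2 and at 6.17 and 7.66 FPKM in KDM5_KD replicates 1 and 2. Its log2 fold change was 1.32 (SE 0.248, limma adjusted p = 0.107), and 1.56 without NC replicate 1. KLF13 was at 23.4 and 18.4 FPKM against 16.6 and 11.3 FPKM (-0.57, SE 0.226, limma adjusted p = 0.278). KLF12 and KLF11 had log2 fold changes of 0.59 and 0.44, with all knockdown values above the controls. Of the 9 KLF rows, 3 lay entirely above and 2 entirely below, where 35.1% and 15.6% of all transcripts did so. The relatives tested with the highest means were KLF3, at between 92.5 and 111 FPKM, and KLF10, at between 72.2 and 101 FPKM, both below KLF4 in every library.

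Markers of the first lineages were then compared with the factors. Of 14 trophectoderm markers, 13 had a row and 11 were tested, and of 8 primitive endoderm markers, 6 had a row and 3 were tested. None passed the limma adjusted threshold, and 2 trophectoderm rows and 1 primitive endoderm row were higher at an unadjusted limma p under 0.05 (14.3% of all transcripts). Their median log2 fold changes were 0.34 and 0.29. The median was 0.09 for all transcripts tested, 0.25 in the lowest level group and 0.16 in the next. The keratin gene KRT8 was at 2.86 and 1.10 FPKM in NC replicates 1 and 2 and at 18.2 and 9.23 FPKM in KDM5_KD replicates 1 and 2 (2.30, SE 0.406, limma adjusted p = 0.106), and HAND1 at 1.70 and 1.40 FPKM against 4.12 and 3.35 FPKM (0.89, SE 0.211, limma adjusted p = 0.140). Without NC replicate 1 the log2 fold change of KRT8 was 2.74. GATA4, of the primitive endoderm, was at 4.02 and 1.55 FPKM against 9.25 and 7.39 FPKM (1.37, SE 0.346, limma adjusted p = 0.153). Its log2 fold change was 1.86 without NC replicate 1. Of the 11 trophectoderm rows, 4 had negative values. TFAP2C, the most abundant of the 11, was at 161 and 182 FPKM against 157 and 152 FPKM (-0.15, limma adjusted p = 0.569). ASCL2 was at 1.96 and 1.09 FPKM against 0.790 and 0.853 FPKM (-0.45, SE 0.245, limma adjusted p = 0.401). GATA3 had a log2 fold change of -0.29, and these 3 lay entirely below the controls, while 5 rows lay entirely above. Of all transcripts, 15.6% lay entirely below and 35.1% entirely above. The share above was 48% in the lowest level group and 40.6% in the next. KRT18 had -0.26 with overlapping groups, and GATA2 0.61, also overlapping. CDX2, a defining trophectoderm factor, was at 4.50 and 4.52 FPKM against 3.00 and 10.6 FPKM, so its groups overlapped.

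Genes linked to genome activation were also listed, of which 6 of 15 had a row and all 6 were tested. All libraries share the labelled stage, so these levels cannot check it. EIF1AX was at 221 and 265 FPKM in NC replicates 1 and 2 and at 242 and 225 FPKM in KDM5_KD replicates 1 and 2, and H2AZ1 at 409 and 350 FPKM against 380 and 287 FPKM. Both overlapped between groups. None of the 6 passed the limma adjusted threshold or had an unadjusted limma p under 0.05, and their median log2 fold change was -0.10, beside -0.12 for the 6 pluripotency factors. The trophoblast interferon gene IFNT2 was at most 0.0502 FPKM in any library.

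**Figure D5:**
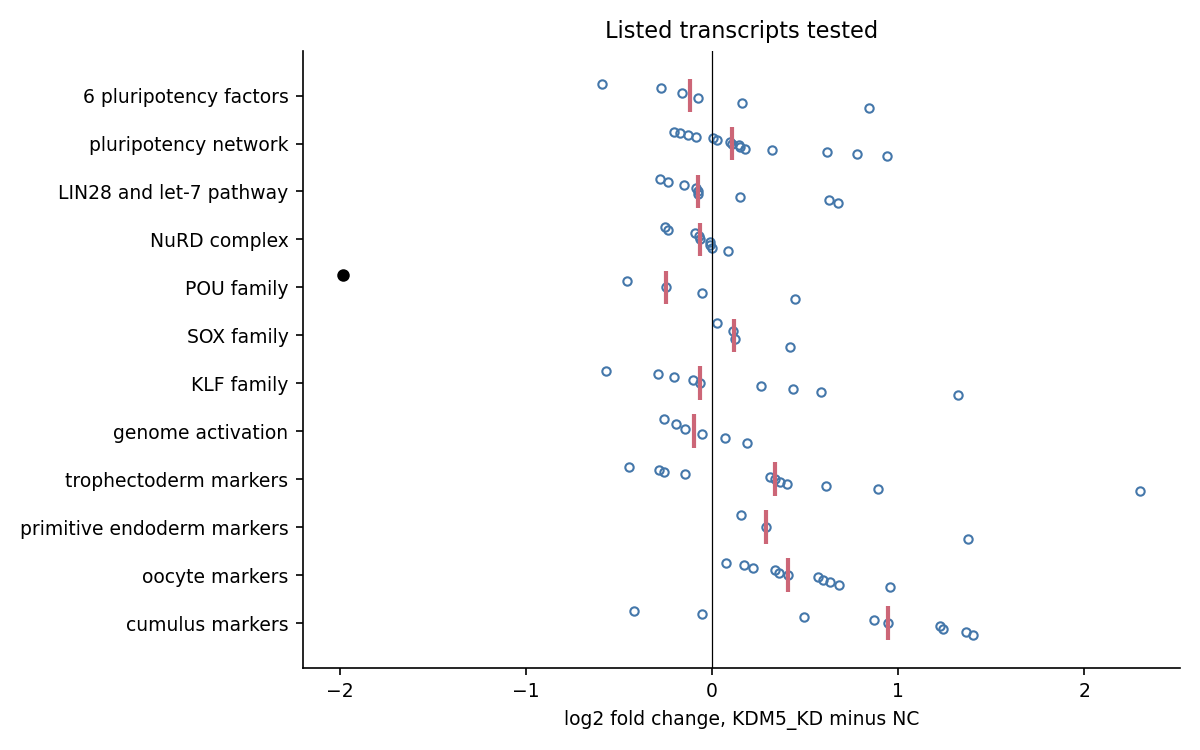
Log2 fold change, KDM5_KD minus NC (horizontal axis), of each tested transcript in 12 gene lists (rows), as open circles, filled black where the limma adjusted p is under 0.05, with a red bar at the median of the list. The 6 pluripotency factors spread from -0.59 to 0.85 around a median of -0.12, POU3F2 at -1.98 is the only filled point, and the cumulus and oocyte markers lie mostly to the right, with medians of 0.94 and 0.41.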

How the data were processed

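Per the labels' protocols, libraries were made from mRNA captured with oligo(dT) beads, with PCR amplification after fragmentation and reverse transcription. The submitters' processing notes name Trimmomatic, HISAT2, featureCounts and Cufflinks without versions. The genome build is not given in the sources used here. The authors deposited FPKM values, and 14295 of 14517 accessions were given a symbol through RefSeq's genes on ARS-UCD2.0. No positions are given because the build behind the FPKM is unnamed.

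limma 3.58.1 under R 4.3.3 (lmFit, then eBayes with a mean-variance trend) was run on log2(FPKM + 1) over the 8970 transcripts with a mean of at least 1 FPKM, all 4 libraries and no covariates, with Benjamini-Hochberg adjustment over all of them. The pseudocount of 1 understates changes of low transcripts. The fit was run on simulated data whose variances were drawn from its own fitted model. That run cannot show how well the p-values hold for these 4 libraries. Relative depth came from ratios of low values (0.001 to 0.3 FPKM) between libraries, of which 48.8% to 53.6% lay within 1% of small whole-number ratios.

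The members and lists were chosen with earlier results of these data known. Named were all 6 factors, the siRNA targets and KDM6A, any listed transcript that passed and up to 4 per list with the largest absolute fold change, and the 2 transcripts most like each factor. AMH, TNFAIP6, TFAP2C, GATA3, KRT18, KLF10, KLF3, TUT7, TUT4, SALL1 beside SALL4, FGF4, CDX2, IFNT2, FSHR, CYP19A1 and EIF1AX were named after their values were seen. Alternatives were another pseudocount, other filters, 3 scalings, other variance models, the replicate number as a block, rows summed by symbol and each library left out. Rescaling without microRNA rows was added after the data were seen. Plots used Python 3.11.15 and matplotlib 3.10.9.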

Additional observations from a re-analysis of the deposited data

How the results depend on the processing

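None of the 6 factors passed the threshold as reported or in any of 90 comparisons with an alternative, 4 of which for each factor left out a library, and 88 of the 90 kept the direction. The exceptions were NANOG at -0.12 and SALL4 at 0.0038, both without NC replicate 1. Changing the filter or variance model, adding the block or summing rows leaves the log2 fold change of each factor unchanged. In those comparisons the direction was fixed in advance, so it was tested only under the other settings. Over the 11 alternatives that kept all libraries, the log2 fold change ranged from 0.70 to 0.90 for LIN28A, from -0.73 to -0.59 for SOX2, from -0.42 to -0.20 for KLF4, from -0.31 to -0.14 for SALL4, from -0.21 to -0.07 for POU5F1 and from 0.02 to 0.16 for NANOG. With single libraries left out the ranges were 0.66 to 1.03, -0.83 to -0.35, -0.41 to -0.14, -0.33 to 0.0038, -0.12 to -0.03 and -0.12 to 0.44 in the same order. The lowest limma adjusted p in any alternative was 0.0888, for LIN28A without NC replicate 1. A library left alone in its group is assumed there to vary like the others.

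Median-ratio scaling moved the median difference over all transcripts from 0.09 to -0.04, quantile normalization to -0.05 and a common sum to -0.01, which bears on the direction of the smallest differences. The number of transcripts called, 25 as reported, was 3 without a filter (rows at 0 in every library left out), 14 with a common sum, 12 with eBayes without a trend, 46 with robust eBayes and 12 with the replicate number as a block, and between 6 and 340 with single libraries left out, the highest without NC replicate 1. The POU list had 1 call as reported and 0 without a filter, and between 0 and 1 with single libraries left out. The pluripotency network and KLF lists had no call as reported and between 0 and 1 with single libraries left out, DPPA3 and KLF6 being called without NC replicate 1. The causes were not tested.

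The labels do not say that the replicate numbers pair the samples. Deviations of same-numbered libraries from their group means correlated at 0.229 across transcripts. With the block the limma adjusted p was 0.107 for SOX2 and 0.139 for LIN28A, and no factor passed. The trophectoderm marker KRT8 passed with the block, at an adjusted p of 0.0399 in limma. Without read numbers no detection limit applies to rows at or near 0.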
